A study of Drosophila melanogaster with 6 samples.

Results

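Octopamine and tyramine are small amine transmitters of insects, and octopamine is the transmitter of the neurons in which the study places AKHR, the receptor of the hunger hormone AKH. The genes described here were chosen by their FlyBase symbol. They are Tdc2 and Tbh for synthesis, Vmat for vesicle loading, Oamb, Octalpha2R, Octbeta1R, Octbeta2R and Octbeta3R for octopamine receptors, and Oct-TyrR and TyrR for tyramine receptors. Of these 10 genes, 8 were found among the 11922 gene identifiers of the files. The octopamine receptor Octbeta1R (FBgn0038980) and the tyramine receptor Oct-TyrR (FBgn0004514) matched no row by identifier and were not analysed here.

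RNA was taken from heads, with associated tissues, of wild-type Oregon-R virgin female flies aged 5 d. ND-fed flies were kept on normal food and HFD-fed flies on normal food with added coconut oil for 5 d, and the labels name no other treatment. Each diet had 3 samples, and each sample pooled the heads of many flies, so that values are those of pools and not of single animals. The level of each gene was given in FPKM, a count of fragments divided by exon length and by the mapped fragments of the sample, which can be compared between genes.

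Octopamine is made from tyrosine in 2 steps. The neuronal enzyme Tdc2 removes the carboxyl group of tyrosine to give tyramine, and Tbh, tyramine beta-hydroxylase, turns tyramine into octopamine, so that a neuron with Tdc2 but without Tbh makes tyramine alone. Vmat, the vesicular monoamine transporter, loads these amines into synaptic vesicles, and it serves dopamine and serotonin neurons as well. Oamb raises intracellular calcium, the Octbeta receptors raise cAMP, and Octalpha2R lowers cAMP. TyrR responds to tyramine far more than to octopamine. In flies octopamine is known for its part in arousal, locomotion, flight and the rise of activity under starvation.

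In the BDGP6 annotation the receptor genes with values all lie on chromosome arm 3R. Oamb (FBgn0024944) lies on the minus strand from 20689018 to 20714577, and Octalpha2R (FBgn0038653) on the minus strand from 18799280 to 18849224. Octbeta3R (FBgn0250910, 12511570 to 12548229) and Octbeta2R (FBgn0038063, 12550625 to 12595725) are neighbours on the minus strand with a gap of 2395 bases between them. TyrR (FBgn0038542) lies on the minus strand from 17750129 to 17763188, and a gap of 2658 bases separates it from TyrRII, a second tyramine receptor gene on the plus strand that is not among the 10. Tbh (FBgn0010329) lies on the plus strand of chromosome X from 7995697 to 8027394 and is annotated with transcripts of 7 and 8 exons. Tdc2 (FBgn0050446) and Vmat (FBgn0260964) are both on chromosome arm 2R, with 1 transcript of 8 exons for Tdc2 and 4 transcripts for Vmat. The build used by the authors is not given in the sources used here, and these positions serve only to place the genes.

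The samples were not alike before diet was considered. ND replicate 3 correlated with the other samples at 0.842 to 0.920 over log2 values of 8362 genes, while ND replicates 1 and 2 and HFD replicates 1 and 3 correlated with each other at 0.971 to 0.979. HFD replicate 2 stood between, at 0.934 to 0.954 with those 4 samples. The heads carried the markers of a head. The 8 photoreceptor genes listed summed to between 21547 and 30754 FPKM, each of the 8 neuron genes with values was expressed, and 3 of 6 ovary genes were listed at 0 in all samples, with no ovary value above 0.347 FPKM. The 8 midgut genes with values, which are digestive proteases and amylases, summed to 18231 and 19383 FPKM in ND replicates 1 and 2 but to 73.7 FPKM in ND replicate 3. In HFD replicates 1, 2 and 3 they summed to 12140, 6026 and 15660 FPKM. From the steps of low values, the depth was estimated at 5320000 fragments in HFD replicate 2, the lowest, to 11860000 in HFD replicate 3, the highest.

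None of the octopamine and tyramine genes with values passed the test for a difference between HFD-fed and ND-fed flies. Of the 8 genes, 0 had an adjusted p under 0.05 from limma and 0 had an unadjusted p under 0.05. The background over the 8362 genes tested was 0.0478% for the adjusted p, with 0.0239% higher and 0.0239% lower, and 6.71% for the unadjusted p, with 3.11% higher and 3.6% lower. In 0 of the 8 genes were ND and HFD samples without overlap, against 12.6% of all genes tested, where HFD was above in 4.54% and below in 8.07%. The log2 differences (HFD minus ND) lay between -0.089 and 0.18 with a median of -0.044, and the median over all genes tested was -0.027. Of the 8 differences, 3 were above and 5 below 0. In bulk heads, fewer cells of a type and less RNA per cell cannot be told apart, and so a level per head is not a level per octopaminergic neuron.

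Among the genes of synthesis, Tdc2 was expressed at 3.48, 2.71 and 4.50 FPKM under ND feeding and 3.64, 4.56 and 4.12 FPKM under HFD feeding, given here and for each gene that follows in the order of replicates 1, 2 and 3. The diets overlapped, since ND replicate 3 lay above HFD replicates 1 and 3, and ND replicate 2 was the lowest sample. The mean was 3.56 ± 0.896 FPKM (SD, n = 3) under ND and 4.11 ± 0.462 FPKM (SD, n = 3) under HFD. This gave a log2 difference of 0.18, the largest of the 8 genes, with a standard error (SE) of 0.17 and a limma p of 0.344, or 0.959 when adjusted. The two-sided exact permutation test gave p = 0.4, where 3 samples against 3 cannot go below 0.1. An estimated 51 to 112 fragments per sample stood behind the Tdc2 values, so that counting error alone was up to 14.0% of a value, beside a spread of 25.1% (SD over mean) among the ND samples.

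Tbh, the enzyme of the second step, measured 8.83, 8.02 and 11.4 FPKM under ND feeding and 9.54, 8.95 and 8.68 FPKM under HFD feeding. All 3 HFD samples fell inside the range of the ND samples. The mean was 9.42 ± 1.78 FPKM (SD, n = 3) under ND and 9.05 ± 0.438 FPKM (SD, n = 3) under HFD, and the log2 difference was -0.039 (SE 0.14, limma, adjusted p = 0.998). Its exact permutation p was 0.9. Between 179 and 444 estimated fragments per sample supported these values, more than for Tdc2.

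The ratio of Tbh to Tdc2 within a sample does not depend on how libraries were scaled. It was 2.53, 2.96 and 2.54 in the ND replicates and 2.62, 1.96 and 2.11 in the HFD replicates, so that HFD replicate 1 lay within the ND range and the other two below it. The mean ratio was 2.68 ± 0.244 (SD, n = 3) under ND and 2.23 ± 0.346 (SD, n = 3) under HFD. The log2 difference of the ratio was -0.27, with p = 0.3 from the two-sided exact permutation test and 0.8 after Benjamini-Hochberg adjustment over 6 within-sample measures. In every sample Tbh stood above Tdc2.

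Vmat was the most highly expressed of the 8 genes. Its level was 44.6, 41.4 and 53.6 FPKM under ND feeding and 41.1, 50.1 and 43.4 FPKM under HFD feeding. ND replicate 3 and HFD replicate 2 were the high samples, and the other 4 lay within 41.1 to 44.6 FPKM whatever the diet. The mean was 46.5 ± 6.31 FPKM (SD, n = 3) under ND and 44.8 ± 4.65 FPKM (SD, n = 3) under HFD, a log2 difference of -0.048 (SE 0.13, limma, adjusted p = 0.998, exact permutation test p = 0.6). Exons of Vmat share 2129 bases with CG13330 on the other strand in the annotation, and whether the counting used strand is not given in the sources used here. CG13330 was listed at 24.5 to 35.6 FPKM, and reads of the shared bases cannot be told apart.

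**Figure D1:**
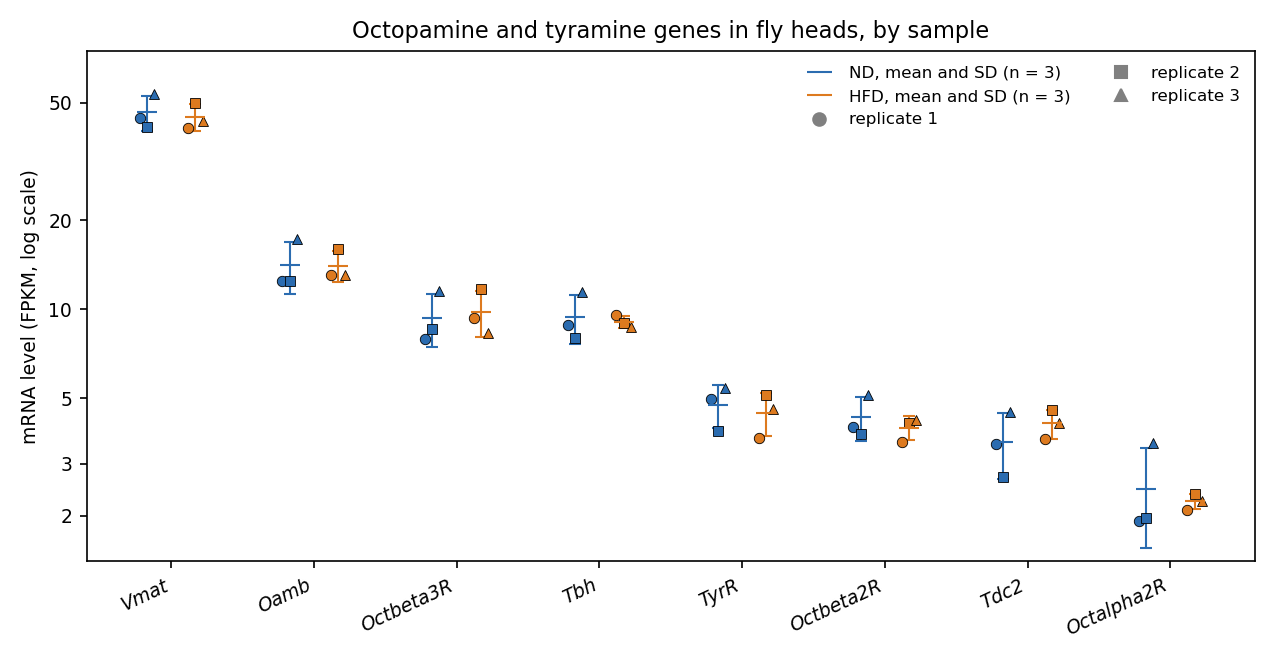
mRNA level in FPKM (log axis) of the 8 octopamine and tyramine genes, ordered by mean level, in 3 ND samples (blue) and 3 HFD samples (orange). Circles, squares and triangles are replicates 1, 2 and 3, and bars give the mean and SD (n = 3). The ND and HFD samples overlap for each gene, and Vmat lies above the others at 41.1 to 53.6 FPKM.

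Of the octopamine receptors, Oamb had the highest level. It reached 12.4, 12.5 and 17.3 FPKM under ND feeding and 13.0, 16.0 and 13.1 FPKM under HFD feeding. The mean was 14.1 ± 2.80 FPKM (SD, n = 3) under ND and 14.0 ± 1.72 FPKM (SD, n = 3) under HFD, with a log2 difference of 0.0080 (SE 0.16, limma, adjusted p = 0.998). As with Vmat, ND replicate 3 and HFD replicate 2 were the high samples of their diets.

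Octbeta3R and Octbeta2R, which both couple to cAMP, were the next. Octbeta3R measured 7.91, 8.60 and 11.5 FPKM under ND feeding and 9.32, 11.7 and 8.34 FPKM under HFD feeding, a log2 difference of 0.063 (SE 0.18, limma, adjusted p = 0.998). Its means were 9.35 ± 1.93 FPKM (SD, n = 3) under ND and 9.79 ± 1.73 FPKM (SD, n = 3) under HFD, and ND replicate 3 and HFD replicate 2 were again the high samples. The level of Octbeta2R was 3.99, 3.79 and 5.13 FPKM under ND feeding and 3.55, 4.13 and 4.22 FPKM under HFD feeding, a log2 difference of -0.089 (SE 0.13, limma, adjusted p = 0.998). Its means were 4.30 ± 0.727 FPKM (SD, n = 3) under ND and 3.97 ± 0.366 FPKM (SD, n = 3) under HFD, with ND replicate 3 high, HFD replicate 1 low and the diets overlapping. In FPKM as given, the 2 neighbouring genes differed in level by more than they differed between diets. That difference in level rests on the transcript lengths the authors used, which are not given in the sources used here. With the shortest annotated transcript the Octbeta2R values correspond to 50 to 120 fragments by estimate, and with the longest to 147 to 353.

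Octalpha2R, the receptor that lowers cAMP, had the lowest level of the 8 genes. It reached 1.92, 1.96 and 3.52 FPKM under ND feeding and 2.10, 2.36 and 2.24 FPKM under HFD feeding. ND replicate 3 alone lay above all HFD samples, while ND replicates 1 and 2 lay below all of them. The means of 2.47 ± 0.913 FPKM (SD, n = 3) under ND and 2.23 ± 0.132 FPKM (SD, n = 3) under HFD gave a log2 difference of -0.070 (SE 0.20, limma, adjusted p = 0.998). The SD was 37.0% of the mean on ND and 5.93% on HFD, against a counting error of at most 9.05%.

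TyrR, the tyramine receptor with values, measured 4.95, 3.88 and 5.41 FPKM under ND feeding and 3.67, 5.12 and 4.59 FPKM under HFD feeding. The samples of the diets were interleaved. The mean was 4.75 ± 0.787 FPKM (SD, n = 3) under ND and 4.46 ± 0.731 FPKM (SD, n = 3) under HFD, a log2 difference of -0.073 (SE 0.16, limma, adjusted p = 0.998). For the 5 receptors with values, the exact permutation test gave p between 0.6 and 1.

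How large a change these samples could have missed is given by the 95% intervals of limma. On the scale of FPKM + 1, the intervals of the 8 genes together ran from 0.677-fold, for Octalpha2R, to 1.51-fold, for Tdc2. The interval was narrowest for Vmat, at 0.778-fold to 1.20-fold, and that of Tbh ran from 0.772-fold to 1.23-fold. A change of 2-fold on this scale in either direction, the size the study's rule for a differentially expressed gene asks for, lay outside the interval of each of the 8 genes, while changes smaller than the bounds lay within. Because 1 FPKM was added before taking logs, these folds understate changes of the low genes such as Octalpha2R and Tdc2. By that rule, an unadjusted p under 0.05 with a ratio past 2, 0 of the 8 genes were called, against 1.11% of the genes tested.

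**Figure D2:**
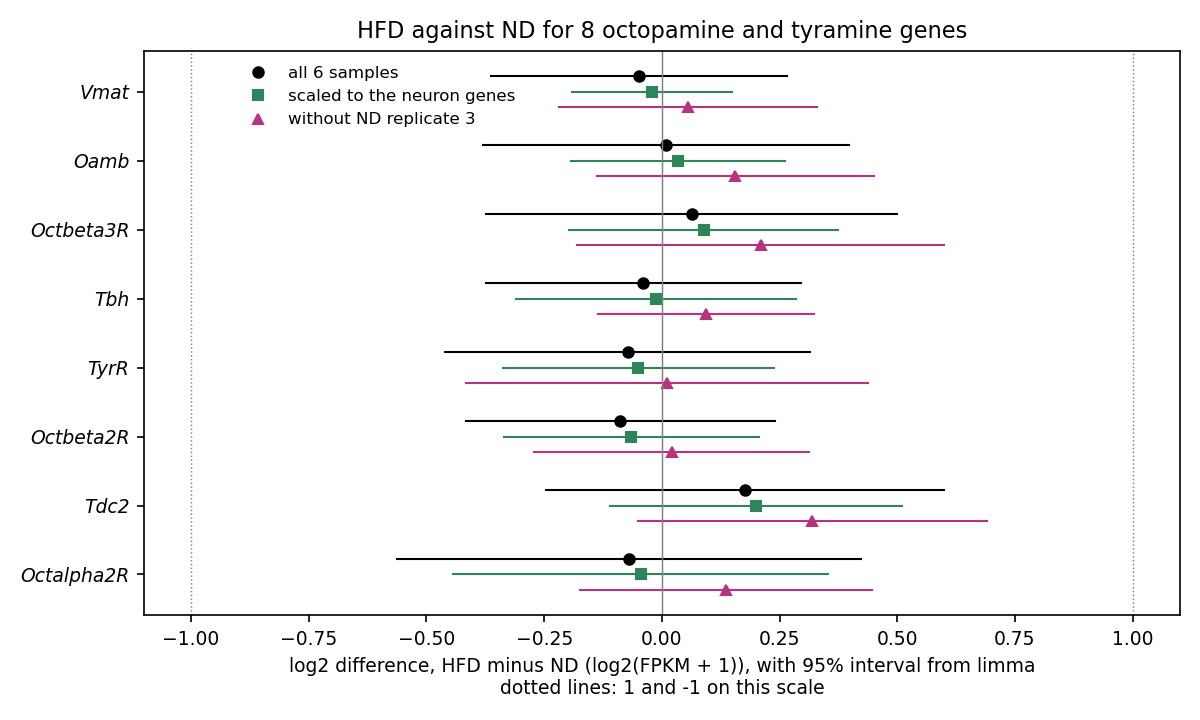
Difference between HFD and ND on the log2(FPKM + 1) scale for each of the 8 genes, with its 95% interval from limma, for all 6 samples (black circles), after scaling each sample to the neuron genes (green squares) and without ND replicate 3 (magenta triangles). All intervals include 0, and none reaches the dotted lines at 1 and -1.

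The level order over the 6 samples, with the mean FPKM, was Vmat (45.7), Oamb (14.1), Octbeta3R (9.57), Tbh (9.24), TyrR (4.60), Octbeta2R (4.14), Tdc2 (3.83) and Octalpha2R (2.35). Vmat was above 81.1% of the 8362 genes tested in mean FPKM, Oamb above 49.2%, and the other members above 12.4% to 37.4%. Neighbours in the order were compared within each sample, by a two-sided exact sign-flip permutation test over 6 samples, with adjustment over the 7 pairs. In 5 of the 7 pairs the upper gene was higher in 6 of 6 samples, with the smallest p that this test can give, 0.0313, and an adjusted p of 0.0438. The pairs and their direction were set by the means of the same 6 samples. These p-values therefore describe only how steadily the order repeated between samples. Vmat stood 3.26-fold above Oamb, Oamb 1.47-fold above Octbeta3R, Tbh 2.01-fold above TyrR, and Tdc2 1.64-fold above Octalpha2R, as geometric means of the FPKM ratio. TyrR was above Octbeta2R by 1.11-fold. These orders rest on the transcript lengths the authors used, which are not given in the sources used here. Annotated transcripts range from 2446 to 7325 bases for Vmat, from 3668 to 6101 for Octbeta3R and from 2260 to 6672 for Octbeta2R, so that the ratios of Vmat to Oamb, Oamb to Octbeta3R and TyrR to Octbeta2R could turn with the length chosen. Octbeta3R and Tbh (exact permutation p = 0.719, adjusted p = 0.719) and Octbeta2R and Tdc2 (exact permutation p = 0.188, adjusted p = 0.219) did not differ beyond their spread. Octbeta3R was the higher of its pair in 3 of 6 samples and Octbeta2R in 4 of 6.

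Of the 4 octopamine receptors with values, Oamb kept nearly the same share in each sample, and the shares of the others varied more. Oamb made up 46.1% to 47.3% of the summed FPKM of the 4 genes over the 6 samples, Octbeta3R 29.9% to 34.2%, Octbeta2R 12.1% to 15.2% and Octalpha2R 6.90% to 9.39%. These shares also rest on the transcript lengths the authors used. The sum itself ran from 26.2 FPKM in ND replicate 1 to 37.5 FPKM in ND replicate 3. The mean share of Oamb was 46.7% ± 0.618 (SD, n = 3) under ND and 46.8% ± 0.226 (SD, n = 3) under HFD. For the 4 shares and the sum, the exact permutation test between the diets gave p from 0.4 to 1. In ND replicate 3, Octalpha2R had its highest share, 9.39%.

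**Figure D3:**
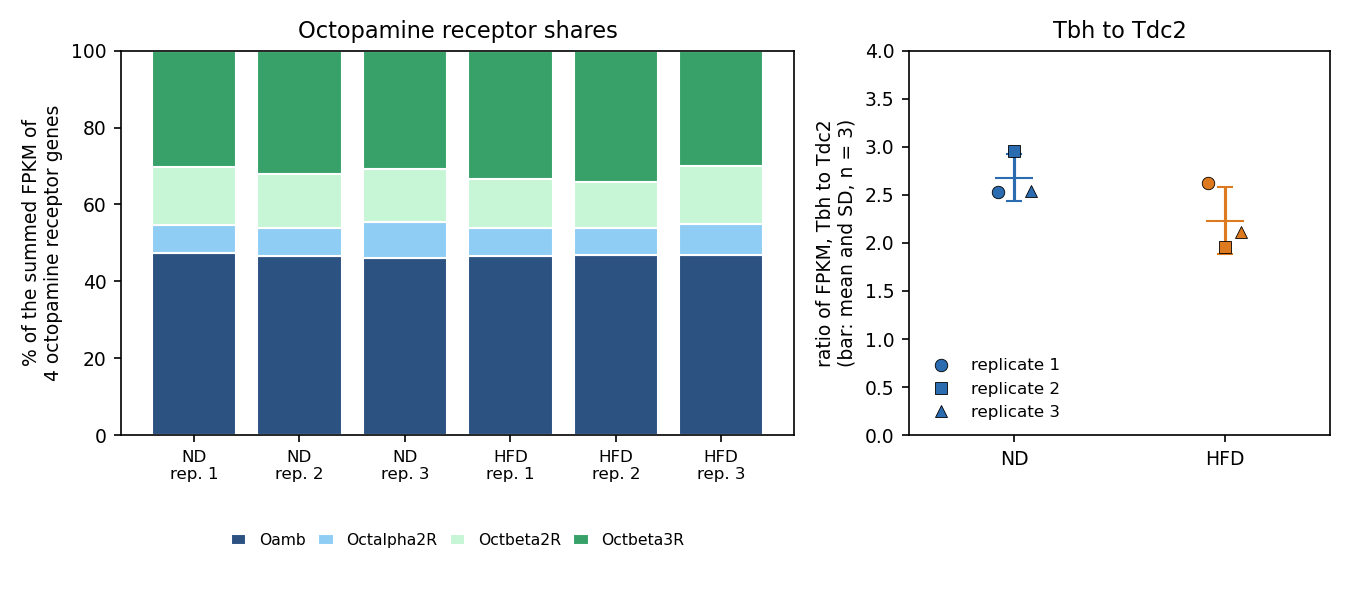
Left, the share of each receptor in the summed FPKM of the 4 octopamine receptor genes, in percent, for each of the 6 samples, where Oamb takes 46.1% to 47.3%. Right, the ratio of Tbh to Tdc2 FPKM in each sample (circles, squares and triangles for replicates 1, 2 and 3), with the mean and SD (n = 3) of each diet, 2.68 on ND and 2.23 on HFD.

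Most of the 8 genes were high in the same samples. ND replicate 3 was the highest of the 6 samples in 6 of the 8 genes, against 38.7% of all genes tested, and all 8 genes lay above their own mean there. ND replicate 3 and HFD replicate 2 were the highest pair of samples in 6 of the 8 genes, against 23.4% of all genes tested. Tbh and Octbeta2R departed from this within HFD, where Tbh was highest in HFD replicate 1 and Octbeta2R in HFD replicate 3. The mean deviation of the 8 genes from their own 6-sample means, in log2(FPKM + 1), was 0.27 in ND replicate 3 and 0.12 in HFD replicate 2, and lay between -0.17 and -0.036 in the other 4 samples. The mean over the 8 neuron genes with values deviated in the same samples, by 0.18 in ND replicate 3, 0.17 in HFD replicate 2 and -0.12 to -0.032 in the others. These neuron genes are elav, brp, Syt1, cac, Rdl, Syx1A, Snap25 and Syn, and among them cac went the other way in ND replicate 3, at 6.57 FPKM against 11.7 to 16.6 FPKM elsewhere. Other cell types moved likewise. The mean of the 5 glia genes with values deviated by 0.20 in ND replicate 3 and 0.10 in HFD replicate 2, and the photoreceptor sums were highest in these samples, at 30754 and 27726 FPKM. The median deviation of all genes tested was 0.097 in ND replicate 3 and 0.0041 in HFD replicate 2. The 2 samples in which the members and the neuron genes were highest were also the 2 with the lowest midgut sums, 73.7 and 6026 FPKM, and the part of midgut RNA in these differences was not tested.

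When each sample was scaled to the mean log2 level of the neuron genes, the SD over the 6 samples became smaller for 8 of 8 genes, against 42.4% of all genes tested. Its median fell from 0.19 to 0.12 on the log2 scale. For Vmat the SD went from 0.15 to 0.035, and for Oamb from 0.19 to 0.085. Tdc2 and Octalpha2R kept the widest spread after scaling, with SDs of 0.16 and 0.17. Scaling to the glia genes, which were high in the same samples, was not run. Whether the smaller spread is particular to the neuron genes was therefore not tested. The differences between diets stayed small on this scale, from -0.065 for Octbeta2R to 0.20 for Tdc2, and 0 of 8 had an unadjusted p under 0.05 from limma.

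**Figure D4:**
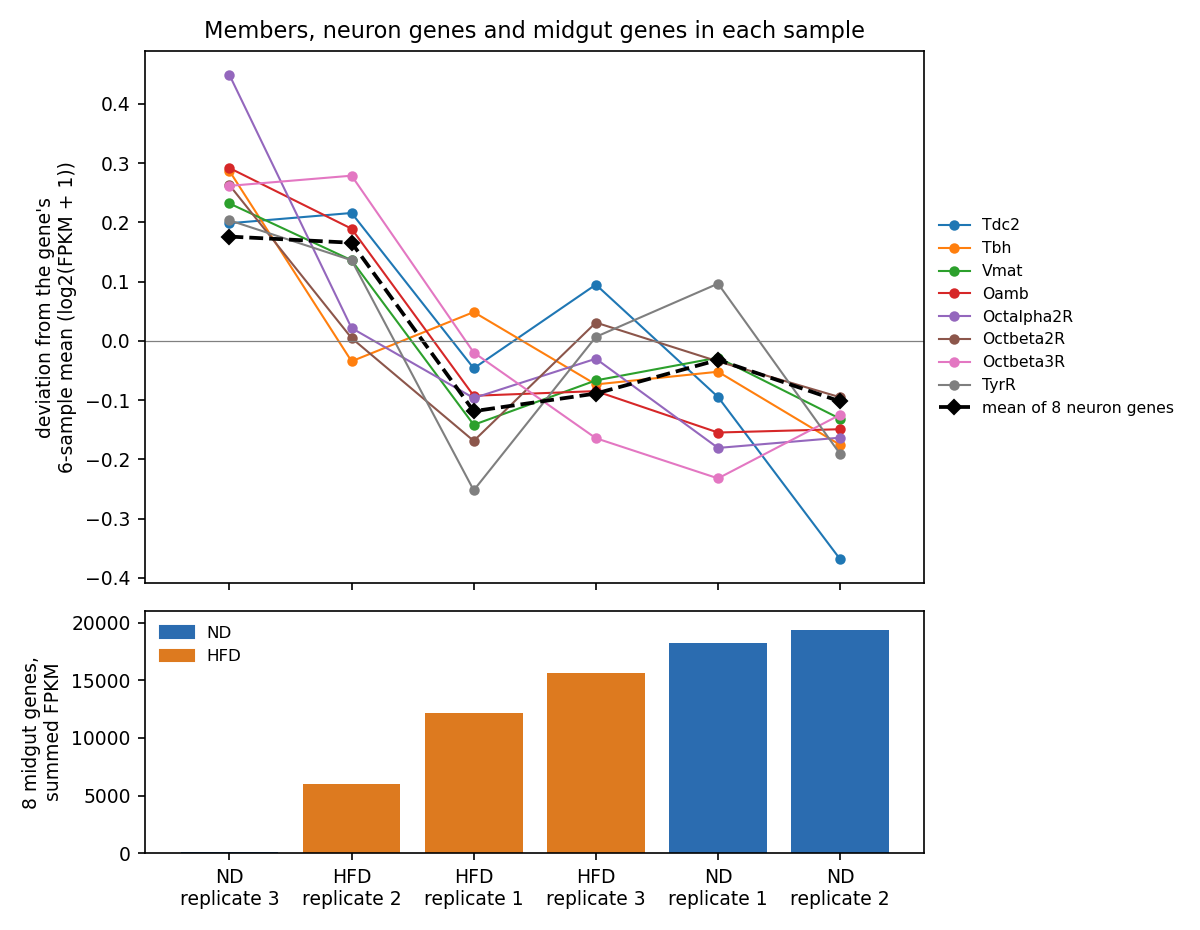
Top, deviation of each of the 8 genes in each sample from its own 6-sample mean in log2(FPKM + 1), with the mean of 8 neuron genes as a dashed black line. Bottom, summed FPKM of 8 midgut genes in the same samples, ordered by that sum, with ND in blue and HFD in orange. The members and the neuron genes are highest in ND replicate 3 and HFD replicate 2, where the midgut sums are lowest at 73.7 and 6026 FPKM.

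Leaving out ND replicate 3 turned the direction of 5 of the 8 differences, those of Tbh, Vmat, Octalpha2R, Octbeta2R and TyrR. Without it, all 8 log2 differences were above 0, from 0.011 for TyrR to 0.32 for Tdc2, where the limma unadjusted p was 0.0778 and the adjusted p 0.442. ND replicate 3 was the highest ND sample for each of the 8 genes, so leaving it out had to raise every difference. The median log2 difference over all genes tested was 0.0075 without ND replicate 3. The HFD samples then all lay above the 2 remaining ND samples for Tdc2, Oamb and Octalpha2R, 3 of the 8 genes, against 18.9% of all genes tested in the same comparison. In that comparison the midgut sums did not overlap either, at 18231 and 19383 FPKM on ND and 6026 to 15660 FPKM on HFD, and diet and midgut RNA cannot be told apart. Leaving out both ND replicate 3 and HFD replicate 2 gave log2 differences from -0.076 for TyrR to 0.26 for Tdc2, and the same count of 3 genes without overlap, against 22.7% of all genes tested. Other single samples turned a direction as well. Without HFD replicate 2 the differences of Oamb and Octbeta3R were -0.085 and -0.060, without ND replicate 1 they were -0.067 and -0.037, without ND replicate 2 that of Oamb was -0.065, and without HFD replicate 1 those of Vmat and TyrR were 0.011 and 0.035. Tdc2 alone of the 8 stayed on one side of 0 in each fit that left out 1 sample, from 0.036 to 0.32.

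The other genes of amine handling were taken from a list of 9, of which 6 had values. None of the 6 had an unadjusted or an adjusted p under 0.05 from limma, and 3 were higher and 3 lower on HFD, with a median log2 difference of 0.022. Tdc1, the tyrosine decarboxylase gene expressed mainly outside neurons, was at 7.65 to 10.7 FPKM on ND and 7.78 to 10.8 FPKM on HFD, above neuronal Tdc2 in every sample. The tyramine receptor gene TyrRII, next to TyrR, was at 2.07 to 2.29 FPKM on ND and 2.08 to 2.60 FPKM on HFD, and it was below TyrR in every sample. AANATL7 and AANATL3 belong to a family of amine N-acetyltransferases, and AANATL7 differed by -0.12 on the log2 scale (limma, adjusted p = 0.984). The third of the largest differences was that of e, which encodes the enzyme that couples amines to beta-alanine, at 0.086 (limma, adjusted p = 0.998). AANATL3 was at 36.8 and 44.8 FPKM in ND replicates 1 and 2, was listed at 0 in ND replicate 3, and was at 28.7, 4.70 and 21.0 FPKM in the HFD replicates. Its samples followed the order of the midgut sums, apart from HFD replicates 1 and 3, and its log2 difference of 0.37 (limma, adjusted p = 0.998) had the opposite sign from the difference of its means, 27.2 FPKM on ND and 18.1 FPKM on HFD. Without ND replicate 3 it was -1.43 (limma, unadjusted p = 0.109).

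Receptor signalling genes were a list of 28, drawn from classes through which receptors of this kind can act. Among the classes were G protein subunits, adenylyl cyclases, phospholipases, protein kinases, phosphodiesterases and receptor-silencing proteins. Whether each listed gene serves the octopamine or tyramine receptors was not tested. Values were found for 23 of the 28, but not for CrebB or the G protein alpha subunit genes Galphas, Galphaq, Galphao and Galphai. Of the G protein subunits, only Gbeta13F and Ggamma1 were thus compared. Among the 23, 22 passed the minimum of 0.5 FPKM. Of these 22 genes, 0 had an adjusted and 0 an unadjusted p under 0.05 from limma, 12 were higher and 10 lower, and the median log2 difference was 0.019. The largest difference was that of the adenylyl cyclase gene Ac78C, at 4.01, 3.50 and 5.31 FPKM on ND and 5.21, 5.16 and 5.71 FPKM on HFD, 0.28 on the log2 scale (limma, adjusted p = 0.834). Pde8, a cAMP phosphodiesterase, was at 23.4, 23.8 and 24.2 FPKM on ND and 25.7, 33.8 and 26.8 FPKM on HFD, 0.25 on the log2 scale (limma, adjusted p = 0.789). It was the 1 gene of the 22 whose HFD samples all lay above the ND samples, against 4.54% of all genes tested. Plc21C, a phospholipase C, differed by -0.14 on the log2 scale (limma, adjusted p = 0.944). Without ND replicate 3, 9 of the 22 had all HFD samples above the ND samples, against 18.9% of all genes tested. Diet and midgut RNA cannot be told apart in that comparison.

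AkhR, the gene of AKHR, measured 22.4, 30.5 and 39.8 FPKM under ND feeding and 39.2, 44.6 and 36.6 FPKM under HFD feeding. Its level was thus above that of Tdc2 and Tbh in every sample, and AkhR is also known from the fat body, which heads contain. The diets overlapped, and its log2 difference was 0.40 (SE 0.21, limma, unadjusted p = 0.112, adjusted p = 0.857). Scaled to the neuron genes it was 0.42 (limma, unadjusted p = 0.0472, adjusted p = 0.866), against 0.20 for Tdc2 and -0.013 for Tbh on the same scale. Without ND replicate 3 the AkhR difference was 0.59 (limma, unadjusted p = 0.0137, adjusted p = 0.269). In that comparison diet and midgut RNA cannot be told apart. The study reports AKHR mRNA as unchanged by HFD, by both RNAseq and quantitative RT-PCR. The 4 of 6 fat body genes with values summed to 645 to 1159 FPKM on ND and 529 to 698 FPKM on HFD. They did not move together. The storage protein gene Lsp2 had a log2 difference of -1.85 (limma, unadjusted p = 0.00734, adjusted p = 0.473). That of bmm was 0.36 (limma, unadjusted p = 0.0550, adjusted p = 0.736), and those of Lsd-1 and fit were -0.091 and -0.040. The part of fat body RNA in the AkhR values was not tested. That AkhR and the octopamine genes differed in their response was not tested.

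Over the 6 samples, the genes most like Tdc2 among those tested were fln, magu and Nepl17, by the root mean square difference of centred log2(FPKM + 1), which was 0.029, 0.032 and 0.039. For Tbh they were tyn, stau and dpr5, at 0.023, 0.025 and 0.032. Tdc2 and Tbh, the enzymes of one pathway, were less alike at 0.16, and 1633 of the 8362 tested genes were closer to Tdc2 than Tbh was. From the side of Tbh, 3482 genes were closer than Tdc2 was. Of the members, Oamb was the closest to Tdc2, with 805 genes closer, and Octalpha2R the farthest, with 2058 closer. Most of the tested genes were thus farther from Tdc2 than any member was. The part of counting error in these distances was not tested. These nearest genes describe the profiles over 6 samples and carry no test.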

How the data were processed

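Poly(A) RNA of 6 head samples was sequenced. The authors deposited 1 table per sample with a value in FPKM for each gene, which the labels call RPKM, normalised for transcript length and mapped reads. HISAT is named in the submitters' processing notes. Its version, the genome build, the annotation and the counting tool are not given in the sources used here. Each table held 12138 rows and 11922 FlyBase identifiers, of which 101 stood on several rows, and the first row of each was used. Symbols were matched for 11794 identifiers from the reference tables.

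Groups were taken from the sample labels. Values entered the fit as log2(FPKM + 1), and the 8362 genes whose 6-sample mean reached 0.5 FPKM were kept. HFD was compared with ND by limma 3.58.1 (lmFit and eBayes with trend, R 4.3.3), with Benjamini-Hochberg adjustment over all genes tested, two-sided throughout. Single values were compared by exact permutation of the samples (scipy 1.17.1, numpy 2.4.6, pandas 2.3.3). Because the files hold no counts, no count test was run. The FPKM steps of low values gave whole reads for only 63.0% to 69.8% of values (within 0.15 of a whole number), so depth and fragments are estimates, and errors from them cover counting only. The fit was tested on simulated data. Samples are described as biological replicates of pooled flies.

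The genes and the lists were chosen with earlier results of these data known. Named in the text were all members with values, the 3 tested genes with the largest absolute difference in each further list, AkhR, and the 3 genes most like each of Tdc2 and Tbh. Tdc1, TyrRII and CG13330 were added after their values were seen. Alternatives covered the pseudocount, the filter, scaling, variance moderation, repeated rows, the replicate number and single samples.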

Additional observations from a re-analysis of the deposited data

How the results depend on the processing

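Of 132 differences of the 8 octopamine and tyramine genes under alternatives, 117 kept their direction and 15 changed it, and 0 had an adjusted or unadjusted p under 0.05 (lowest limma adjusted p 0.442, lowest unadjusted p 0.0778). Part of the 117 was fixed in advance. Alternatives of the filter, the variance, the replicate block and the repeated rows cannot change the difference of a member. Leaving out 1 sample at a time gave log2 differences of 0.036 to 0.32 for Tdc2, -0.14 to 0.094 for Tbh, -0.13 to 0.056 for Vmat, -0.085 to 0.16 for Oamb, -0.18 to 0.14 for Octalpha2R, -0.16 to 0.021 for Octbeta2R, -0.060 to 0.21 for Octbeta3R and -0.19 to 0.035 for TyrR. Quantile normalization turned Tbh to 0.0063. Leaving out both ND replicate 3 and HFD replicate 2, chosen after seeing the data, turned Tbh to 0.10 and Octalpha2R to 0.11 and left 3 members with HFD above ND (0 to 3 leaving out 1 sample). Causes were not tested.

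Over all genes, 2 were higher by adjusted p (0 with no filter, 0 with unmoderated variance, 5 with median-ratio scaling, 0 to 2 leaving out 1 sample) and 2 lower (1 with no filter, unmoderated variance or neuron scaling, 5 without both samples, 1 to 3 leaving out 1). By unadjusted p, 260 were higher (503 without both samples, 172 to 574 leaving out 1) and 301 lower (132 with neuron scaling, 537 without both, 202 to 474 leaving out 1). Without both samples 1 of the other amine genes was lower by unadjusted p. Receptor signalling genes higher by unadjusted p numbered 0 (2 with median-ratio scaling, 1 with neuron scaling, 1 without both, 0 to 2 leaving out 1), and those with HFD above ND numbered 1 (2 with median-ratio scaling, 10 without both, 1 to 9 leaving out 1). Of all 8362 genes, 378 were higher by unadjusted p with median-ratio scaling and 341 with neuron scaling. HFD lay above ND in 4.54% of all genes, in 22.7% without both samples and in 18.9% without ND replicate 3. With median-ratio scaling it did so in 594 of 8362.

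Whether samples of the same number were paired is not given in the sources used here. Deviations of same-numbered samples correlated at 0.31, -0.51 and -0.36, and those of ND replicate 3 and HFD replicate 2 at 0.55. These correlations cannot settle whether numbers mark a shared batch. Blocking on the replicate number called 0 genes higher and 1 lower by adjusted p and 185 lower by unadjusted p, and each member's adjusted p was 0.999. The ratio of Oct-TyrR to TyrR was not run, and a filter at a mean of 5 FPKM left no value for Tdc2, Octalpha2R, Octbeta2R and TyrR. Depth limits Tdc2, at an estimated 51 to 112 fragments per sample, and Octbeta2R, if its shortest transcript was used.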

Other observations

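Ac13E, an adenylyl cyclase gene, and Pka-R2, a regulatory subunit of protein kinase A, were chosen after their values were seen. Ac13E was at 12.9, 12.5 and 4.85 FPKM under ND feeding and 13.8, 15.1 and 4.77 FPKM under HFD feeding, in the order of replicates 1, 2 and 3. Pka-R2 measured 57.5, 53.0 and 43.2 FPKM under ND feeding and 54.9, 58.5 and 38.6 FPKM under HFD feeding. Both were lowest in replicate 3 of each diet, whereas the octopamine and tyramine genes were highest in ND replicate 3 or HFD replicate 2. The catalytic subunit gene Pka-C2 was listed at 0 in all 6 samples, and Pka-C1 was at 63.3 to 79.4 FPKM.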
